A study of Mus musculus with 9 samples.

Results

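The 39 genes described here encode glutamate receptors and the scaffolds that hold them at the postsynaptic side of excitatory synapses. They were taken from a list of gene symbols that was drawn up with earlier results of these data known, and each symbol matched 1 of the 41128 genes in the deposited count table. The list held 4 AMPA, 6 NMDA, 5 kainate and 1 delta receptor genes, 6 metabotropic receptor genes, 2 AMPA receptor auxiliary genes, 4 DLG, 4 DLGAP, 3 SHANK and 3 HOMER scaffold genes, and 1 gene of the CaMKII kinase. The RNA came from the dorsal telencephalon, the source of the neocortex and hippocampus, of newborn (P0) mice of strain B6:129SF2/J. The study asked which genes depend on Tcf4, which encodes a basic helix-loop-helix transcription factor, in this tissue. The 3 genotypes were sequenced with 3 libraries each, labelled TCF4 knockout (KO), TCF4 heterozygote (Het) and wildtype (WT). No other allele or agent is named for any group. The sources used here do not state the deleted part of Tcf4. The labels do not say whether the 3 libraries of a genotype came from separate pups or litters, so the p-values measure the spread between these libraries.

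Glutamate is the main excitatory transmitter of the forebrain. AMPA, NMDA and kainate receptors are ion channels built of 4 subunits, and the choice of subunits sets their speed, calcium entry and trafficking. Metabotropic receptors signal through G proteins. In rodent cortex GluN2B and GluN2D are the early GluN2 subunits and GluN2A is gained after birth. The scaffolds form a layered lattice: DLG proteins bind receptors, DLGAP proteins bind DLG and SHANK proteins, and SHANK and HOMER proteins link this lattice to metabotropic receptors and the cytoskeleton.

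Total counts ran from 26355671 to 29445788 in KO libraries, from 24008445 to 29398411 in Het libraries and from 22291940 to 23813314 in WT libraries. Tcf4 itself had 611 to 638 CPM (counts scaled to library size with TMM factors) in KO and 652 to 822 CPM in Het libraries, against 584 to 728 CPM in WT libraries, and was called in no comparison (KO versus WT -0.10, adjusted p = 0.36). The count covers every exon, deleted or not, so it does not check the labels, and KO, Het and WT below mean the libraries so labelled. KO replicate 3 differed from the other libraries in its sex-linked genes, with 2730 counts of Xist and 2 of Ddx3y, against at most 3 and at least 794 counts in the others. It had the pattern of female tissue and the others that of male tissue. Among the genes described here, Gria3 and Dlg3 lie on the X chromosome. Without KO replicate 3 the KO versus WT call of Gria3 was lost and that of Dlg3 was kept. WT replicate 2 had 1926 counts of the immediate early gene Fos, against at most 95 in the others.

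TCF4 and its partners bind E boxes, DNA words of the form CANNTG. A RefSeq promoter window (build GRCm38.p6) was matched to 27 of the 39 genes. Some windows began far from the gene start in the GENCODE annotation, by 614114 bases for Dlg2, 107260 for Dlgap4 and 11697 for Grin2d. For the 4 genes printed below the distance was at most 15 bases. The 250 bases before the start held at least 1 CANNTG in 15 of these 27 promoters (55.6%), against 63.2% of all 18690 promoters of the same length. CAGCTG stood in 3.7% of the members' promoters against 12.3% of all, CAGGTG or its reverse complement CACCTG in 11.1% against 16.8%, and CATATG in 0 of 27 against 2.84%. CANNTG reads the same on both strands and includes the other words. A match describes letters in the window and does not show binding. The promoters of 4 genes are printed because Grin1 and Shank3 had lower counts in KO and in Het libraries, while Grik3 was lower and Grik2 higher in KO libraries. Capitals mark each CANNTG. Grin1 is at chr2:25319188-25319437 (minus strand), Shank3 at chr15:89499358-89499607 (plus strand), Grik3 at chr4:125490446-125490695 (plus strand) and Grik2 at chr10:49788755-49789004 (minus strand).
Grin1: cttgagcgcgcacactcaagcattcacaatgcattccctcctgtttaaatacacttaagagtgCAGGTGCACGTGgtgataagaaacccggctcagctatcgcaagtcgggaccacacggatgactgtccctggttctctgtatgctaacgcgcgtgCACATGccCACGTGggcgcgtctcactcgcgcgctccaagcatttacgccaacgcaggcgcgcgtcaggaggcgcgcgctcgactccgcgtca
Shank3: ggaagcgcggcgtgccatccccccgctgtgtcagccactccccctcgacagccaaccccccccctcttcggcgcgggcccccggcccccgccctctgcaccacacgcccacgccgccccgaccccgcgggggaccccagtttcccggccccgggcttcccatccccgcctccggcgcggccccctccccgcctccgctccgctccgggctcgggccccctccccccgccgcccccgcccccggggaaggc
Grik3: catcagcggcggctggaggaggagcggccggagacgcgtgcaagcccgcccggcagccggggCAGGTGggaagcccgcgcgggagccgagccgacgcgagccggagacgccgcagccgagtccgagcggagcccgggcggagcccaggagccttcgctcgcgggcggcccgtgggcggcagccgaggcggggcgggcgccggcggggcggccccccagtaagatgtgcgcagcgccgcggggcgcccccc
Grik2: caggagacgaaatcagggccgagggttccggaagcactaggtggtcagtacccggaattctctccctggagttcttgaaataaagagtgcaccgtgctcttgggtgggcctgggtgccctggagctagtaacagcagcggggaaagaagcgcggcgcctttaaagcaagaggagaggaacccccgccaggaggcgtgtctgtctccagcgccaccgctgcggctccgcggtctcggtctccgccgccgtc
The Grin1 window held 4 matches and the Grik3 window held 1, while the windows of Shank3 and Grik2 held none.

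In KO libraries most of the receptor and scaffold genes were lower than in WT libraries. All 39 passed the low-count filter, and 29 were called in either direction, where 52.8% of all 15271 genes tested were. Of the 39 genes, 25 (64.1%) were lower at an adjusted p under 0.05, where 26.3% of all genes were lower. Only 4 members (10.3%) were higher, against 26.5% of all genes. Genes lower by at least 1.5-fold numbered 13, where 11.6% of all genes were that much lower, and no member was that much higher (10.8% of all genes). The median log2 fold change was -0.33 over the members and 0.01 over all genes. The KO and WT libraries did not overlap for 24 lower and 4 higher members, against 30.8% and 31.9% of all genes. The obligatory NMDA subunit Grin1 was 2.07-fold lower, the metabotropic receptor Grm5 1.93-fold, and the scaffolds Dlgap3 and Shank3 2.21-fold and 1.96-fold. The 4 AMPA subunits had log2 fold changes between -0.22 and 0.09.

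Het libraries showed 20 members lower (51.3%) than in WT libraries, where 23.4% of all genes were lower, and 4 higher (10.3%), where 22.5% were higher. Called in either direction were 24, against 45.9% of all genes. Lower by at least 1.5-fold were 8 (8.98% of all genes) and higher by as much 0 (7.51%). The median was -0.20 over the members and 0.01 over all genes, and 24 lower and 4 higher members had libraries that did not overlap (26.8% of all genes in each direction). Without Het replicate 3, 2 members were higher. The KO and Het comparisons share the WT libraries, so their values are given side by side and not as independent results.

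KO and Het libraries differed in fewer of these genes. In KO libraries 9 members (23.1%) were lower than in Het libraries, where 8.44% of all genes were lower, and 3 (7.69%) were higher, where 8.3% were higher. Called in either direction were 12, against 16.7% of all genes. Grik3 and Grm2 were the 2 members lower by at least 1.5-fold (2.83% of all genes), and 0 were higher by as much (1.98%). The median was -0.05 over the members and 0.00 over all genes, and 12 lower and 3 higher members did not overlap (16.3% and 17.1% of all genes). Without KO replicate 2, 4 members were lower. The plot of log2 fold changes shows the KO and Het values of each gene.

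**Figure D1:**
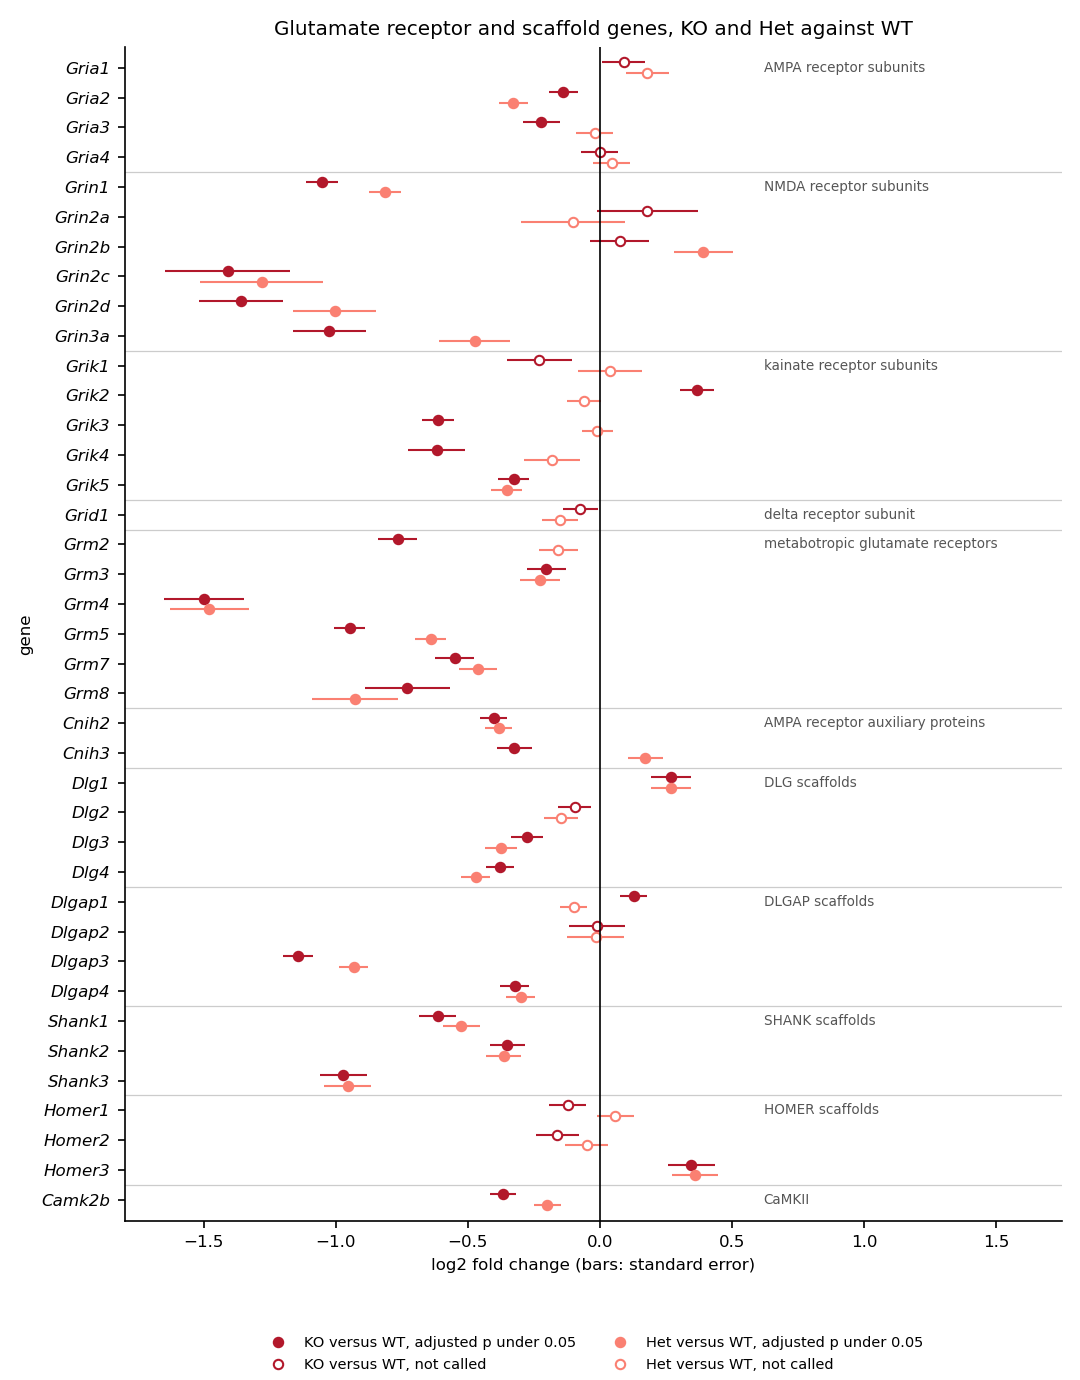
Log2 fold change (x axis) of each of the 39 genes (y axis, grouped by role) for KO versus WT and Het versus WT; points are edgeR estimates, bars are standard errors, filled points have an adjusted p under 0.05. Most filled points lie left of 0, with Grm4 at -1.50 for KO and -1.48 for Het, and Grik2 at 0.37 for KO and -0.06 for Het.

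Markers of cell types moved with genotype, and bulk RNA cannot tell fewer cells of a type from less RNA per cell. Markers counted here as lower or higher had an adjusted p under 0.05 against WT. Over all genes tested, 26.3% were lower and 26.5% higher in KO, and 23.4% lower and 22.5% higher in Het. The summed CPM of 12 striatal neuron markers was 66.5 to 69.7 in KO libraries and 62.1 to 77.0 in Het libraries, against 365 to 393 in WT libraries. Of these 12, 11 were lower in KO and 12 in Het than in WT, and Isl1 was at 0 in a KO and a Het library. The 6 astrocyte markers summed to 396 to 456 in KO and 461 to 495 in Het libraries, against 934 to 971 in WT libraries, with 5 of 6 lower in each. The 11 interneuron markers summed to 557 to 612 in KO and 583 to 666 in Het libraries, against 752 to 798 in WT libraries, with 8 of 11 lower in each. The 5 markers of the oligodendrocyte lineage summed to 171 to 203 in KO and 174 to 180.1 in Het libraries, against 326 to 354 in WT libraries, with 5 lower in KO and 4 in Het. The 5 microglia markers summed to 41.1 to 42.1 in KO and 37.3 to 40.2 in Het libraries, against 79.2 to 89.7 in WT libraries, with 5 lower in each. The 10 progenitor markers summed to 850.2 to 872 in KO, 637 to 733 in Het and 446 to 467 in WT libraries. The 10 markers of neurons in general summed to 9235 to 9564 in KO, 9275 to 9812 in Het and 9695 to 10202 in WT libraries. The 8 markers of cortical excitatory neurons summed to 2240.4 to 2331 in KO and 2145 to 2435 in Het libraries, against 1840.1 to 2092 in WT libraries. Marker sums do not show whether the same borders were dissected in each genotype, and this was not tested. The 4 Cajal-Retzius markers summed to 610.2 to 688 in KO and 682 to 886 in Het libraries, against 419.7 to 467 in WT libraries, with 3 of 4 higher in each. The 4 endothelial markers summed to 124 to 136 in KO and 124 to 136 in Het libraries, against 106 to 108 in WT libraries, with 3 higher in KO and 4 in Het. The 3 choroid plexus markers summed to 7.54 to 26.1 in KO and 0.533 to 16.7 in Het libraries, against 0.775 to 1.2 in WT libraries, and Kcnj13 was at 0 in a library of each genotype. The 3 erythroid markers overlapped, at 224 to 283 in KO and 157 to 234 in Het libraries, against 183 to 324 in WT libraries. The part of these differences in the values below was not tested.

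**Figure D2:**
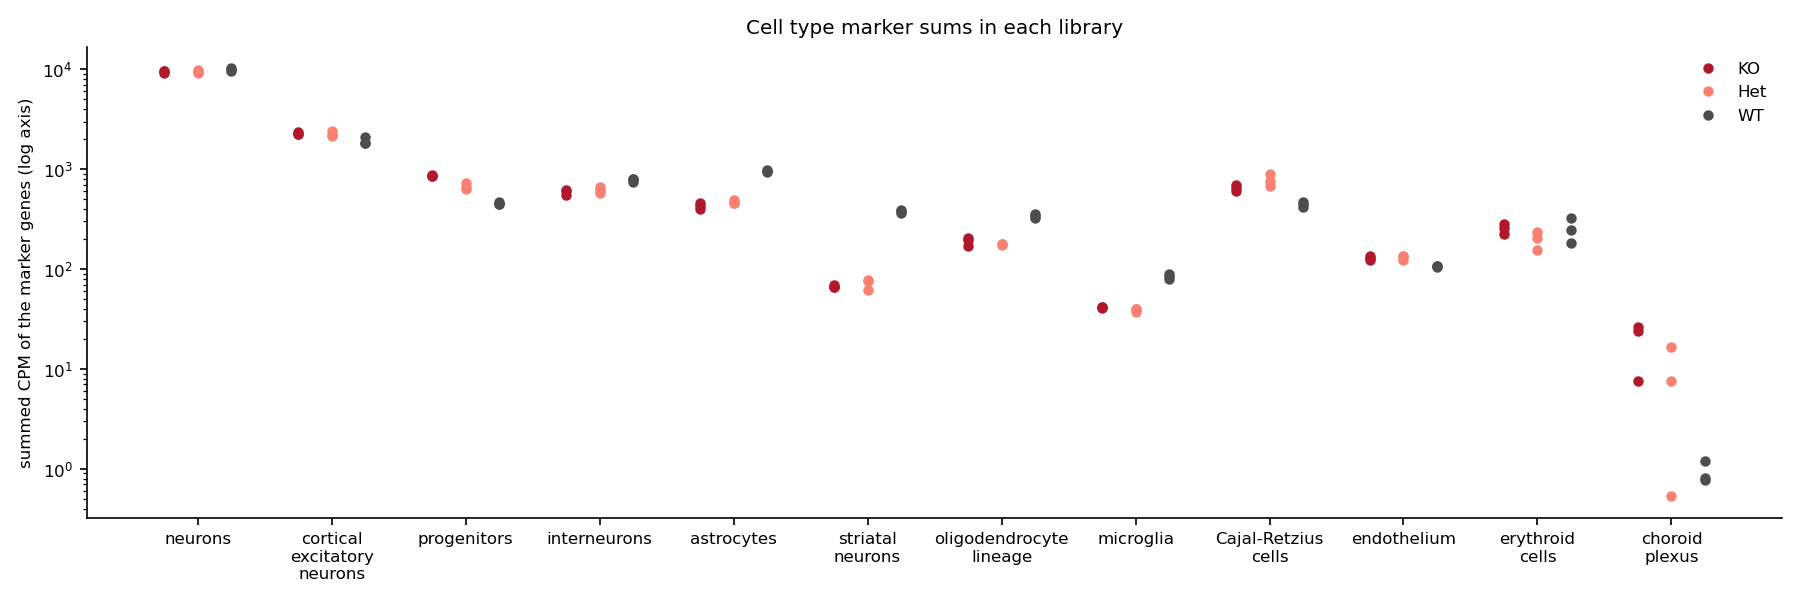
Summed CPM (log axis) of the marker genes of 12 cell types (x axis) in each library, KO, Het and WT from left to right within each type. Striatal sums lie between 62.1 and 77.0 in KO and Het libraries and between 365 and 393 in WT libraries, while the sums of neurons in general lie between 9235 and 10202 in all libraries.

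NMDA receptors need the GluN1 subunit, encoded by Grin1 (chr2:25291181-25319187, minus strand, mm10). Grin1 had 60.9, 56.4 and 55.7 CPM in KO libraries and 62.6, 72.3 and 69.2 CPM in Het libraries, against 121, 116 and 122 CPM in WT libraries. All KO and Het libraries were well under the WT libraries, and the KO libraries lay under the Het libraries. Grin1 was 2.07-fold lower in KO (log2 fold change -1.05, SE 0.06, adjusted p = 4.8e-10) and 1.76-fold lower in Het (-0.81, SE 0.06, adjusted p = 1.9e-08). KO was below Het by a log2 fold change of -0.24 (SE 0.06, adjusted p = 0.012), and this call was lost without KO replicate 2 (-0.22, adjusted p = 0.064) or Het replicate 2 (-0.21, adjusted p = 0.054). Of Grin1's exonic bases 13.5% overlap Grin1os on the other strand, which had at most 17 counts in any library.

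GluN2 subunits bind glutamate and set channel kinetics. Grin2b, which encodes the main embryonic one, had 253, 304 and 293 CPM in KO and 358, 311 and 389 CPM in Het libraries, against 298, 279 and 230.5 CPM in WT libraries. KO and WT libraries overlapped (0.07, SE 0.11, adjusted p = 0.61), and all Het libraries lay above WT (0.39, SE 0.11, adjusted p = 0.017). The Het call was lost without Het replicate 1 (0.39, adjusted p = 0.068) or Het replicate 3 (0.32, adjusted p = 0.069). KO versus Het did not pass (-0.32, SE 0.11, adjusted p = 0.088), although it did without Het replicate 2 (-0.41, adjusted p = 0.039), without WT replicate 3 (-0.32, adjusted p = 0.026), with only the genotypes compared (-0.33, adjusted p = 0.033) and by DESeq2 (-0.32, adjusted p = 0.0091).

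Grin2d, which encodes a slow early subunit found in the rodent brain mainly in interneurons and below the cortex, had 27.1, 23.1 and 19.7 CPM in KO and 25.3, 34.4 and 29.6 CPM in Het libraries, against 71.0, 52.6 and 55.7 CPM in WT libraries. Every KO and Het library was below every WT library, with a fold of 2.57 in KO (-1.36, SE 0.16, adjusted p = 7.3e-05) and 2.01 in Het (-1.01, SE 0.16, adjusted p = 0.00067). KO and Het libraries overlapped (-0.35, SE 0.16, adjusted p = 0.18), although DESeq2 called the difference (-0.36, adjusted p = 0.042). Of Grin2d's exonic bases 9.66% overlap Gm45441 on the other strand, for which no counts were available here. Grin2c, a subunit best known from the cerebellum, was scarce at 0.802, 1.33 and 1.49 CPM in KO and 1.15, 1.25 and 1.56 CPM in Het libraries, against 2.98, 2.94 and 3.74 CPM in WT libraries. It was lower in both (KO -1.41, SE 0.24, adjusted p = 9.1e-05; Het -1.28, SE 0.23, adjusted p = 0.00029). Grin2a, the subunit gained after birth, had 4.53, 4.11 and 3.42 CPM in KO and 3.85, 2.91 and 3.18 CPM in Het libraries, against 4.47, 3.47 and 2.71 CPM in WT libraries, which overlapped in all 3 comparisons (adjusted p from 0.35 to 0.70).

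Grin3a, which encodes a subunit that lowers calcium entry, had 70.4, 61.3 and 61.8 CPM in KO and 81.2, 113 and 88.9 CPM in Het libraries, against 145, 115 and 134 CPM in WT libraries. The 3 genotypes were in steps with no overlap. Grin3a was 2.04-fold lower in KO (-1.03, SE 0.14, adjusted p = 0.00036) and 1.39-fold lower in Het (-0.48, SE 0.14, adjusted p = 0.022), and 1.46-fold lower in KO than in Het (-0.55, SE 0.14, adjusted p = 0.03). The Het call was lost without Het replicate 1 (-0.37, adjusted p = 0.0504), Het replicate 3 (-0.43, adjusted p = 0.083), WT replicate 1 (-0.40, adjusted p = 0.057) or WT replicate 3 (-0.46, adjusted p = 0.068). The KO versus Het call was lost without KO replicate 2 (-0.51, adjusted p = 0.11), KO replicate 3 (-0.53, adjusted p = 0.081), Het replicate 3 (-0.59, adjusted p = 0.062) or WT replicate 3 (-0.55, adjusted p = 0.054). With no low-count filter both calls were lost (Het -0.46, adjusted p = 0.06; KO versus Het -0.55, adjusted p = 0.068).

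The makeup of the GluN2 transcripts followed from these values. By deposited FPKM (counts scaled to gene length and library total), Grin2b was 83.9% ± 3.11 of the GRIN2 sum in KO and 84.3% ± 2.94 in Het libraries, against 68.0% ± 2.88 in WT libraries (SD, n = 3). Grin2d was 13.6% ± 2.85 in KO and 14.0% ± 3.01 in Het libraries, against 29.4% ± 2.78 in WT libraries, and Grin2a was at most 2.48% in any library. With exonic lengths from the GENCODE M21 annotation in place of the authors' lengths, the Grin2b share was 74.1% in KO and 74.2% in Het libraries, against 52.5% in WT libraries. The log2 ratio of Grin2d to Grin2b was -2.26, -2.76 and -2.93 in KO and -2.87, -2.22 and -2.76 in Het libraries, against -1.11, -1.45 and -1.09 in WT libraries. The difference was -1.44 (SE 0.23) for KO and -1.40 (SE 0.23) for Het, with no overlap with WT. An exact two-sided permutation test gave p = 0.1 for each, which is the smallest p that 3 libraries against 3 allow.

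Grin2a relative to Grin2b (log2 ratio) overlapped between KO and WT (difference 0.12, SE 0.21, exact permutation p = 0.7) and was lower in Het (-0.47, SE 0.16, exact permutation p = 0.1). The log2 ratio of Grin3a to Grin1 was -0.74, -0.83 and -0.80 in KO and -0.58, -0.30 and -0.59 in Het libraries, against -0.69, -0.96 and -0.81 in WT libraries. KO and WT overlapped (difference 0.03, SE 0.08) and Het lay above WT without overlap (0.33, SE 0.12, exact permutation p = 0.1). Over the 12 ratios examined, 5 did not overlap in KO versus WT, 9 in Het versus WT and 9 in KO versus Het, and the smallest p adjusted over the 12 was 0.24, 0.133 and 0.133 in that order. A design of 3 against 3 cannot reach a p under 0.05 by this test, so the ratios are described by their libraries.

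**Figure D3:**
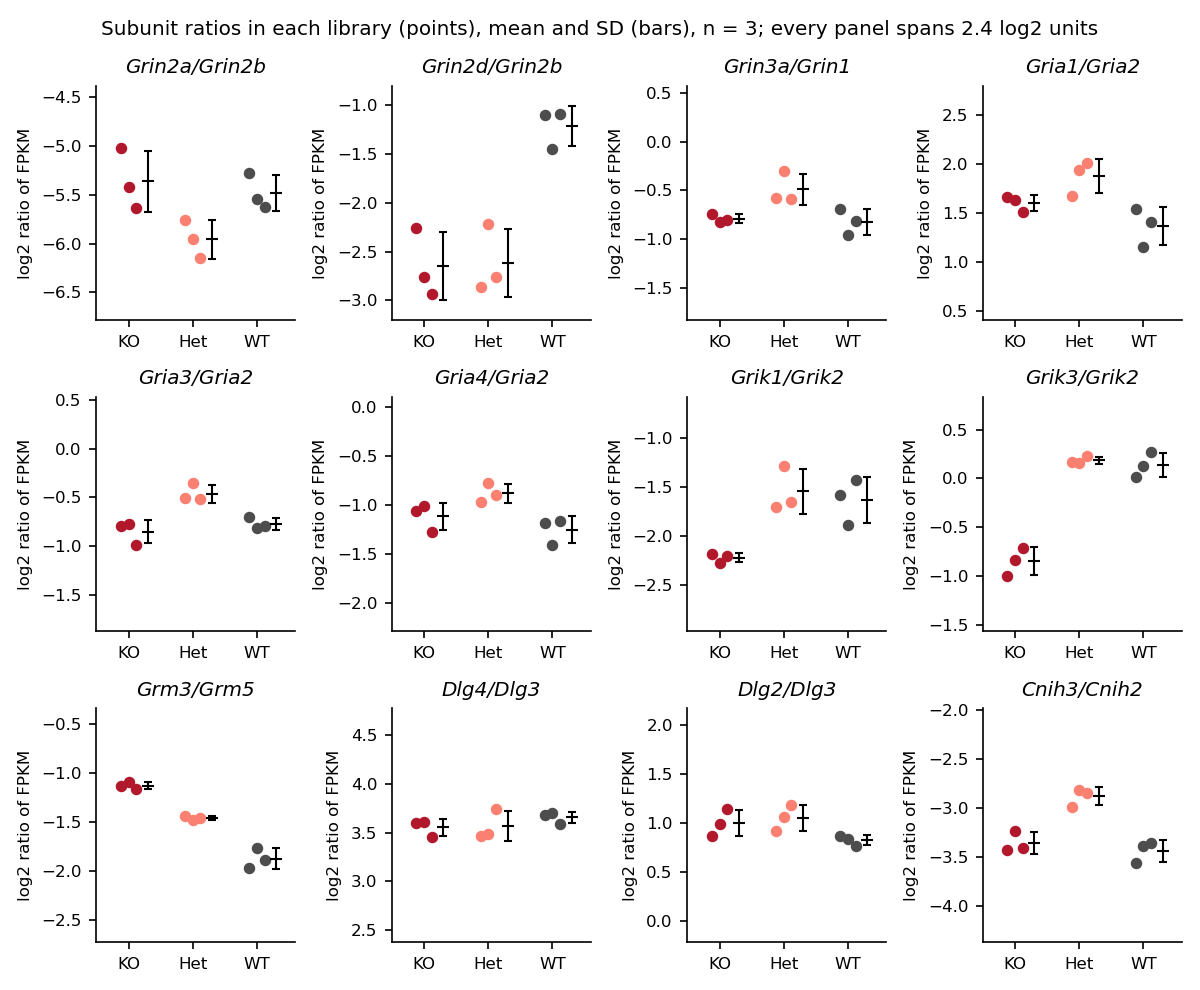
Log2 ratio of FPKM for 12 pairs of genes, with 1 point for each library of KO, Het and WT, and the mean and SD beside them (n = 3 per genotype). Grin2d/Grin2b is lower in all KO and Het libraries than in WT libraries, and Grik3/Grik2 is lower in KO libraries than in Het and WT libraries.

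AMPA receptors carry most fast excitatory transmission, and the Gria2 subunit limits their calcium entry. Gria1 was the most abundant AMPA gene by FPKM, at 76.1 in KO and 81.8 in Het, against 69.8 FPKM in WT libraries on average. Its CPM was 260.4, 263 and 256 in KO and 244, 286 and 298 in Het, against 273, 221 and 237 in WT libraries, and all genotypes overlapped. It did not pass in KO (0.09, SE 0.08, adjusted p = 0.37) or in Het (0.18, SE 0.08, adjusted p = 0.084), although the Het value passed without Het replicate 1 (0.27, adjusted p = 0.0072) or WT replicate 1 (0.27, adjusted p = 0.01), with no filter (0.20, adjusted p = 0.0087) and by limma on log2(FPKM + 1) (0.23, adjusted p = 0.048).

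Gria2 had 164, 169.8 and 179.5 CPM in KO and 153, 149 and 148 CPM in Het libraries, against 188, 199 and 178 CPM in WT libraries. The Het libraries were below all WT libraries, and the KO libraries lay between them, overlapping WT. Gria2 was lower in Het (-0.33, SE 0.05, adjusted p = 0.00012) and marginally lower in KO (-0.14, SE 0.05, adjusted p = 0.041). The KO call was lost without KO replicate 1 (-0.11, adjusted p = 0.17), KO replicate 2 (-0.13, adjusted p = 0.12), Het replicate 2 (-0.13, adjusted p = 0.058), WT replicate 1 (-0.14, adjusted p = 0.068) or WT replicate 2 (-0.10, adjusted p = 0.19). It was also lost with upper-quartile factors (-0.11, adjusted p = 0.083), no filter (-0.12, adjusted p = 0.098) and limma on log2(FPKM + 1) (-0.10, adjusted p = 0.2). KO was above Het (0.19, SE 0.05, adjusted p = 0.024), and that call was lost without KO replicate 2 or 3 or Het replicate 2 or 3 (values from 0.15 to 0.20, adjusted p from 0.063 to 0.12) and by limma on log2(FPKM + 1) (0.17, adjusted p = 0.085).

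Gria3 had 47.6, 49.9 and 45.5 CPM in KO and 53.9, 58.5 and 52.0 CPM in Het libraries, against 58.2, 56.9 and 51.7 CPM in WT libraries. It was lower in KO (-0.22, SE 0.07, adjusted p = 0.013), a call lost without KO replicate 3 (-0.19, adjusted p = 0.053) or WT replicate 1 (-0.19, adjusted p = 0.052). In Het libraries it was at -0.02 (SE 0.07, adjusted p = 0.84). KO lay below Het without overlap but did not pass (-0.20, SE 0.07, adjusted p = 0.055). That difference passed with upper-quartile factors, no filter, the 1 CPM filter, DESeq2, only the genotypes compared, or without Het replicate 3 (values from -0.24 to -0.20, adjusted p from 0.034 to 0.048). Gria4, the remaining AMPA subunit, had 50.8, 54.1 and 47.8 CPM in KO and 50.2, 56.1 and 51.3 CPM in Het libraries, against 53.5, 48.1 and 51.3 CPM in WT libraries, and did not pass in any comparison (adjusted p from 0.64 to 0.99). The log2 ratio of Gria1 to Gria2 was 1.66, 1.63 and 1.51 in KO and 1.68, 1.94 and 2.01 in Het libraries, against 1.54, 1.15 and 1.41 in WT libraries. Het lay above WT without overlap (0.51, SE 0.15) and KO overlapped WT (0.23, SE 0.12). The ratios of Gria3 and Gria4 to Gria2 were also above WT without overlap in Het (0.31, SE 0.06 and 0.37, SE 0.10), while in KO they overlapped WT (-0.08, SE 0.08 and 0.14, SE 0.11).

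The AMPA auxiliary genes Cnih2 and Cnih3 encode cornichon proteins, which slow the receptor's deactivation and aid its export. Cnih2 had 443, 414 and 409 CPM in KO and 442, 422 and 418 CPM in Het libraries, against 561, 555 and 558 CPM in WT libraries. It was lower without overlap in KO (-0.40, SE 0.05, adjusted p = 5.9e-06) and in Het (-0.38, SE 0.05, adjusted p = 1.6e-05). Cnih3 had 58.3, 62.4 and 54.5 CPM in KO and 79.2, 85.4 and 82.4 CPM in Het libraries, against 67.2, 75.0 and 77.1 CPM in WT libraries. KO lay below WT (-0.33, SE 0.07, adjusted p = 0.00058), Het above it (0.17, SE 0.07, adjusted p = 0.043), and KO below Het (-0.50, SE 0.07, adjusted p = 6e-05). The Het call was lost without KO replicate 1 (0.17, adjusted p = 0.055), Het replicate 2 (0.16, adjusted p = 0.097), Het replicate 3 (0.18, adjusted p = 0.063), WT replicate 1 (0.11, adjusted p = 0.19) or WT replicate 2 (0.19, adjusted p = 0.055), and by DESeq2 (0.17, adjusted p = 0.054). Relative to Cnih2, the log2 ratio of Cnih3 overlapped WT in KO (0.08, SE 0.09) and lay above WT in Het (0.56, SE 0.08).

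Kainate receptors are built of low-affinity subunits (Grik1, Grik2 and Grik3) with high-affinity partners (Grik4 and Grik5). Grik2 (chr10:49094833-49788766, minus strand) had 72.8, 73.4 and 69.0 CPM in KO and 52.1, 53.5 and 54.4 CPM in Het libraries, against 59.8, 56.2 and 50.9 CPM in WT libraries. KO libraries lay above every other library. Grik2 was higher in KO than in WT (0.37, SE 0.07, adjusted p = 0.00016) and than in Het (0.43, SE 0.07, adjusted p = 0.00022), and Het did not pass against WT (-0.06, SE 0.07, adjusted p = 0.48).

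Grik3 (chr4:125490700-125714173, plus strand) had 106, 119.5 and 122 CPM in KO and 169.7, 173 and 185 CPM in Het libraries, against 176, 178 and 178 CPM in WT libraries. Only the KO libraries stood apart, below the other 6 libraries. Grik3 was 1.53-fold lower in KO than in WT (-0.61, SE 0.06, adjusted p = 2.1e-07) and 1.52-fold lower than in Het (-0.60, SE 0.06, adjusted p = 1.9e-06), with Het at -0.01 (SE 0.06, adjusted p = 0.9) against WT. The log2 ratio of Grik3 to Grik2 was -0.999, -0.83 and -0.71 in KO and 0.17, 0.16 and 0.23 in Het libraries, against 0.02, 0.13 and 0.27 in WT libraries. The KO difference was -0.99 (SE 0.11) from WT and -1.03 (SE 0.09) from Het without overlap (exact permutation p = 0.1 for each), and Het overlapped WT (0.05, SE 0.07). In KO libraries Grik2 made up 22.1% ± 0.55 of the kainate receptor FPKM and Grik3 12.3% ± 0.93, against 14.5% ± 1.06 and 15.9% ± 0.60 in WT libraries (SD, n = 3). Het libraries had 16.2% ± 0.56 and 18.4% ± 0.51. With GENCODE exonic lengths Grik3 stayed above Grik2 in every genotype, with a mean ratio of 2.38 in KO, 4.87 in Het and 4.71 in WT libraries. The order of the pair thus depends on the lengths, while the differences between genotypes in its log2 ratio do not. The shares depend on the lengths as well. By exonic lengths Grik2 made up 8.0% in KO, 5.5% in Het and 4.87% in WT libraries, and Grik3 19.1%, 26.7% and 22.9%.

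Grik4 had 10.9, 11.6 and 14.9 CPM in KO and 16.4, 17.3 and 17.1 CPM in Het libraries, against 20.9, 18.0 and 18.8 CPM in WT libraries. It was 1.54-fold lower in KO than in WT (-0.62, SE 0.11, adjusted p = 0.00014), while Het lay below WT without passing (-0.18, SE 0.11, adjusted p = 0.18). KO was lower than Het (-0.44, SE 0.11, adjusted p = 0.01), a call lost without KO replicate 1 (-0.35, adjusted p = 0.072) or KO replicate 2 (-0.39, adjusted p = 0.0601). Grik5, the most abundant kainate gene by FPKM, had 234, 239.6 and 228 CPM in KO and 213, 231 and 246 CPM in Het libraries, against 300.0, 282 and 298 CPM in WT libraries. Both lay below WT without overlap (KO -0.33, SE 0.06, adjusted p = 0.00016; Het -0.35, SE 0.06, adjusted p = 0.00011). Grik1 had 14.1, 13.4 and 13.2 CPM in KO and 14.1, 19.4 and 15.3 CPM in Het libraries, against 17.6, 13.4 and 16.7 CPM in WT libraries. It did not pass in KO (-0.23, SE 0.12, adjusted p = 0.12), although it did without WT replicate 2 (-0.34, adjusted p = 0.03). Relative to Grik2 it lay below WT in KO without overlap (-0.59, SE 0.14), and overlapped WT in Het (0.09, SE 0.19). The delta receptor gene Grid1, whose product binds cerebellins and is an organiser of synapses, had 57.1, 66.4 and 58.4 CPM in KO and 55.7, 57.6 and 59.0 CPM in Het libraries, against 66.0, 61.2 and 64.3 CPM in WT libraries, and passed in none of the comparisons (adjusted p from 0.073 to 0.48).

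**Figure D4:**
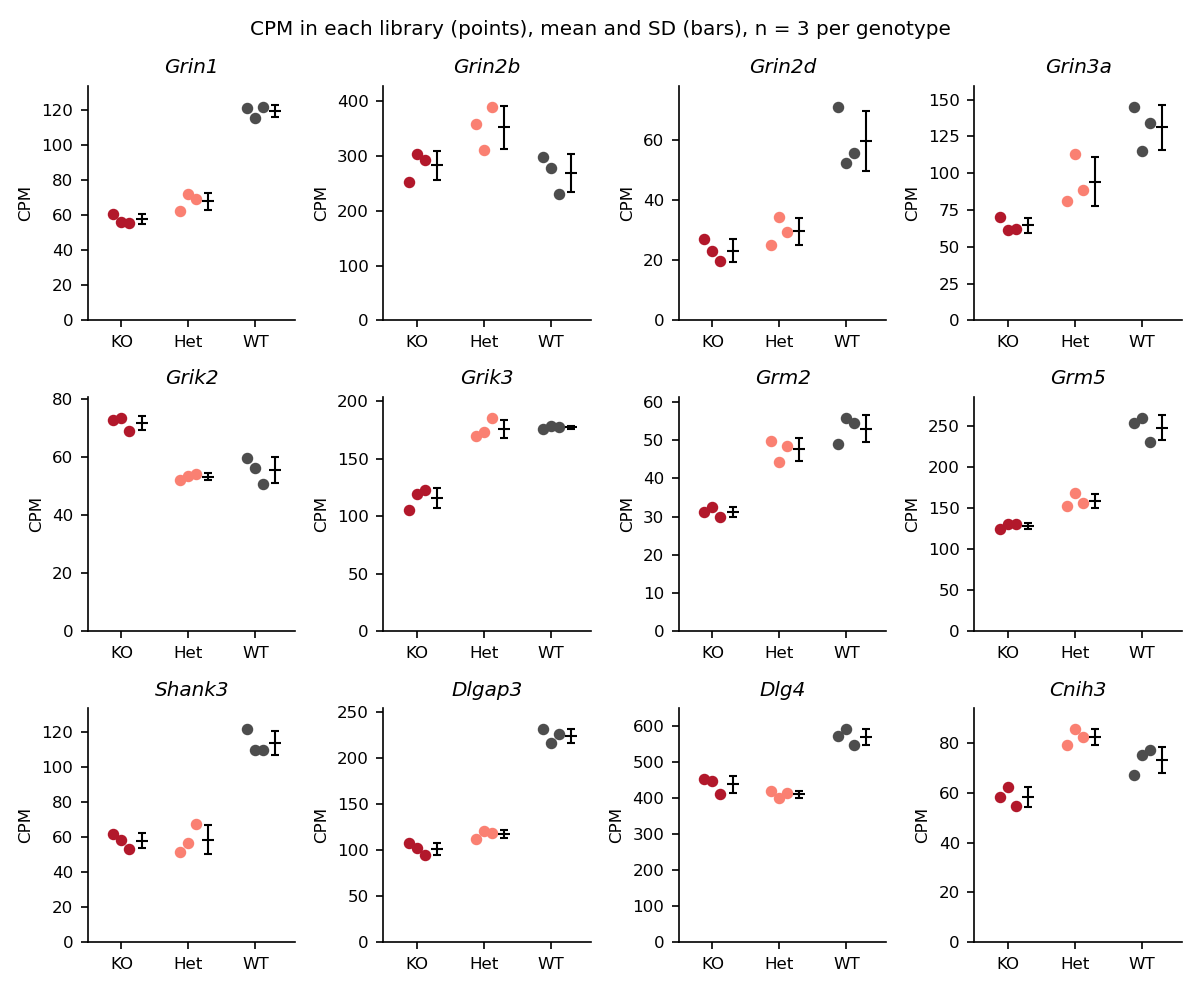
CPM in each library (points) of 12 genes for KO, Het and WT, with mean and SD beside them (n = 3 per genotype). Grin1, Grin2d, Grm5, Shank3 and Dlgap3 are lower in all KO and Het libraries than in WT libraries, while Grik2, Grik3 and Grm2 stand apart in the KO libraries.

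Metabotropic receptors were lower in KO libraries for all 6 genes and in Het libraries for 5 of 6, where 26.3% of all genes were lower in KO and 23.4% in Het. Grm5, which encodes the receptor that links to phospholipase C and binds Homer proteins, had 124, 131 and 130.4 CPM in KO and 152, 168 and 156 CPM in Het libraries, against 253, 259.6 and 231 CPM in WT libraries. The genotypes formed 3 separate steps. Grm5 was 1.93-fold lower in KO (-0.95, SE 0.06, adjusted p = 1.1e-09) and 1.56-fold lower in Het (-0.64, SE 0.06, adjusted p = 2e-07), and lower in KO than in Het (-0.31, SE 0.06, adjusted p = 0.0015).

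Grm2 and Grm3 encode receptors that lower cyclic AMP, Grm2 in neurons and Grm3 also in astrocytes. Grm2 had 31.2, 32.6 and 29.9 CPM in KO and 49.9, 44.3 and 48.6 CPM in Het libraries, against 49.0, 55.7 and 54.4 CPM in WT libraries. The KO libraries lay below all the others, and Het overlapped WT. Grm2 was 1.7-fold lower in KO than in WT (-0.77, SE 0.07, adjusted p = 2.3e-07) and 1.52-fold lower than in Het (-0.61, SE 0.07, adjusted p = 2.3e-05), with Het at -0.16 (SE 0.07, adjusted p = 0.088), which passed without WT replicate 1 (-0.21, adjusted p = 0.042). Of its exonic bases 9.6% overlap Gm28111 on the other strand, which had at most 5 counts. Grm3 had 54.6, 59.5 and 56.1 CPM in KO and 54.1, 58.3 and 55.0 CPM in Het libraries, against 62.3, 73.7 and 59.9 CPM in WT libraries. It was lower in KO (-0.20, SE 0.07, adjusted p = 0.03) and in Het (-0.23, SE 0.07, adjusted p = 0.02). Both calls were lost without WT replicate 2 (KO -0.11, adjusted p = 0.23; Het -0.13, adjusted p = 0.15), the KO call also without KO replicate 1 (-0.17, adjusted p = 0.11) or 3 (-0.20, adjusted p = 0.073), and the Het call also without Het replicate 1 (-0.19, adjusted p = 0.074) or 3 (-0.21, adjusted p = 0.06). By limma on log2(FPKM + 1) both were lost (KO -0.15, adjusted p = 0.1; Het -0.16, adjusted p = 0.091). Relative to Grm5, the log2 ratio of Grm3 lay above WT without overlap in KO (0.75, SE 0.06) and in Het (0.42, SE 0.06).

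Grm4, Grm7 and Grm8 encode presynaptic receptors. Grm4 had 7.32, 6.78 and 6.87 CPM in KO and 5.12, 7.99 and 8.06 CPM in Het libraries, against 22.2, 16.9 and 20.2 CPM in WT libraries. It had the largest fold of the 39 genes in both comparisons with WT, 2.83-fold lower in KO (-1.50, SE 0.15, adjusted p = 7e-07) and 2.79-fold lower in Het (-1.48, SE 0.15, adjusted p = 1.4e-06). Grm8 had 5.44, 5.18 and 4.25 CPM in KO and 3.98, 5.28 and 3.67 CPM in Het libraries, against 7.36, 9.49 and 7.79 CPM in WT libraries. It was 1.66-fold lower in KO (-0.73, SE 0.16, adjusted p = 0.0011) and 1.9-fold lower in Het (-0.93, SE 0.16, adjusted p = 0.00021). Grm7 ranged from 28.7 to 30.8 CPM in KO and from 30.4 to 32.5 CPM in Het, against 40.0 to 46.5 CPM in WT libraries, and was lower in KO (-0.55, SE 0.07, adjusted p = 9e-06) and Het (-0.46, SE 0.07, adjusted p = 8.2e-05). KO and Het did not pass against each other for these 3 genes (adjusted p from 0.47 to 0.96).

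Among the DLG scaffolds, Dlg4 (PSD-95) was the most abundant by FPKM. It had 455, 449 and 413 CPM in KO and 419, 401 and 414 CPM in Het libraries, against 572, 592 and 547 CPM in WT libraries. Both lay below WT without overlap (KO -0.38, SE 0.05, adjusted p = 2.1e-05; Het -0.47, SE 0.05, adjusted p = 3.3e-06). Dlg3 (SAP102), the DLG protein prominent early in rodent development, had 109.6, 107 and 110.0 CPM in KO and 111, 104 and 90.4 CPM in Het libraries, against 131, 133 and 132 CPM in WT libraries. It was lower in KO (-0.28, SE 0.06, adjusted p = 0.0011) and in Het (-0.37, SE 0.06, adjusted p = 0.00011). Dlg2 (PSD-93) had 180.1, 192 and 218 CPM in KO and 188, 196 and 185 CPM in Het libraries, against 214, 214 and 202 CPM in WT libraries. It did not pass in KO (-0.10, SE 0.06, adjusted p = 0.22) or Het (-0.15, SE 0.06, adjusted p = 0.067), although both values passed without KO replicate 3 (KO -0.18, adjusted p = 0.022; Het -0.14, adjusted p = 0.04). Dlg1 (SAP97) ranged from 27.1 to 31.0 CPM in KO and from 28.7 to 30.1 CPM in Het, against 23.2 to 25.6 CPM in WT libraries, and was higher than in WT both in KO (0.27, SE 0.08, adjusted p = 0.0067) and in Het (0.27, SE 0.08, adjusted p = 0.0077). Relative to Dlg3, the log2 ratio of Dlg4 overlapped WT in KO (-0.10, SE 0.06) and in Het (-0.09, SE 0.09), while the ratio of Dlg2 to Dlg3 lay above WT without overlap in KO (0.18, SE 0.08) and in Het (0.23, SE 0.08).

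DLGAP proteins join the DLG layer to the SHANK layer. Dlgap3 (SAPAP3), known for its high expression in the rodent striatum, had 107, 102 and 94.9 CPM in KO and 113, 121 and 118 CPM in Het libraries, against 231, 216 and 226 CPM in WT libraries. The KO libraries lay just under the Het libraries, and both were far under WT. Dlgap3 was 2.21-fold lower in KO (-1.14, SE 0.06, adjusted p = 6.2e-11) and 1.91-fold lower in Het (-0.93, SE 0.06, adjusted p = 1.4e-09). KO was lower than Het (-0.21, SE 0.06, adjusted p = 0.016), a call lost without KO replicate 2 (-0.21, adjusted p = 0.06), KO replicate 3 (-0.17, adjusted p = 0.061) or Het replicate 2 (-0.20, adjusted p = 0.053). Dlgap4 had 265, 263 and 246 CPM in KO and 246, 261 and 279 CPM in Het libraries, against 324, 324 and 321 CPM in WT libraries. It was lower in KO (-0.32, SE 0.06, adjusted p = 0.00013) and in Het (-0.30, SE 0.06, adjusted p = 0.00035). Dlgap1 ranged from 188 to 203 CPM in KO and from 164 to 170.4 CPM in Het, against 173 to 184 CPM in WT libraries. It was slightly higher in KO (0.13, SE 0.05, adjusted p = 0.042), a call lost without KO replicate 2 (0.10, adjusted p = 0.17), KO replicate 3 (0.13, adjusted p = 0.084), WT replicate 1 (0.12, adjusted p = 0.088) or WT replicate 3 (0.11, adjusted p = 0.15). The same call was lost with RLE factors (0.12, adjusted p = 0.057), no filter (0.14, adjusted p = 0.053), the 1 CPM filter (0.11, adjusted p = 0.066) and DESeq2 (0.12, adjusted p = 0.053). Dlgap1 was higher in KO than in Het (0.23, SE 0.05, adjusted p = 0.0053). Dlgap2 ranged from 13.0 to 13.2 CPM in KO and 12.1 to 14.3 CPM in Het, against 12.01 to 15.35 CPM in WT libraries, and passed in no comparison (adjusted p from 0.92 to 0.99).

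SHANK proteins are the deep layer of the lattice. Shank3 (chr15:89499623-89560261, plus strand) had 61.9, 58.2 and 53.4 CPM in KO and 51.3, 56.7 and 67.3 CPM in Het libraries, against 121, 109.5 and 109 CPM in WT libraries. It was 1.96-fold lower in KO (-0.97, SE 0.09, adjusted p = 8.7e-07) and 1.94-fold lower in Het (-0.96, SE 0.09, adjusted p = 1.8e-06). KO and Het overlapped (-0.02, SE 0.09, adjusted p = 0.93). Shank1 had 308, 300.2 and 279.9 CPM in KO and 310.4, 291 and 344 CPM in Het libraries, against 478, 468 and 414 CPM in WT libraries. It was 1.53-fold lower in KO (-0.61, SE 0.07, adjusted p = 1.5e-06) and 1.44-fold lower in Het (-0.52, SE 0.07, adjusted p = 1.3e-05). Shank2 ranged from 109 to 119.7 CPM in KO and from 103 to 119 CPM in Het, against 134 to 153 CPM in WT libraries, and was lower in KO (-0.35, SE 0.07, adjusted p = 0.0003) and in Het (-0.36, SE 0.07, adjusted p = 0.00031).

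HOMER proteins tether metabotropic receptors to SHANK and to intracellular calcium stores. Homer1, the most abundant by FPKM, had 76.9, 84.5 and 87.6 CPM in KO and 102, 95.7 and 84.6 CPM in Het libraries, against 90.0, 95.7 and 85.2 CPM in WT libraries. These overlapped (KO -0.12, SE 0.07, adjusted p = 0.16; Het 0.06, SE 0.07, adjusted p = 0.52). KO versus Het did not pass for Homer1 (-0.18, SE 0.07, adjusted p = 0.093), although it did with no filter (-0.18, adjusted p = 0.028) or without Het replicate 3 (-0.25, adjusted p = 0.02). Homer2 ranged from 49.9 to 63.2 CPM in KO and from 55.7 to 61.9 CPM in Het, against 59.3 to 62.1 CPM in WT libraries. Its KO value did not pass (-0.16, SE 0.08, adjusted p = 0.11), but did without KO replicate 3 (-0.28, adjusted p = 0.003), as did KO versus Het (-0.24, adjusted p = 0.026, against -0.11, adjusted p = 0.39 with all libraries). Homer3 ranged from 18.2 to 21.0 CPM in KO and from 18.5 to 20.5 CPM in Het, against 14.7 to 16.6 CPM in WT libraries. It was higher than in WT both in KO (0.35, SE 0.09, adjusted p = 0.0031) and in Het (0.36, SE 0.09, adjusted p = 0.003). Of its exonic bases 25.4% overlap Ddx49 on the other strand, which had 1080 to 1169 counts in KO, 1000 to 1197 in Het and 846 to 926 in WT libraries. The sources used here do not say whether strand was used in counting, so the Homer3 values are uncertain.

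Camk2b, which encodes the CaMKII subunit that bundles actin at the synapse, had 542, 549 and 512 CPM in KO and 587, 596 and 617 CPM in Het libraries, against 689.7, 669.9 and 708 CPM in WT libraries. The genotypes formed 3 steps without overlap. Camk2b was lower in KO (-0.37, SE 0.05, adjusted p = 1.2e-05) and in Het (-0.20, SE 0.05, adjusted p = 0.0039), and lower in KO than in Het (-0.17, SE 0.05, adjusted p = 0.03). The last call was lost without KO replicate 1 (-0.18, adjusted p = 0.072), KO replicate 2 (-0.19, adjusted p = 0.064), KO replicate 3 (-0.15, adjusted p = 0.077) or Het replicate 3 (-0.15, adjusted p = 0.058).

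Other genes of the pathway, from 3 lists, were counted for comparison. Over all genes tested, 26.3% were lower and 26.5% higher in KO than in WT, and 23.4% lower and 22.5% higher in Het. Of 22 AMPA and kainate receptor auxiliary genes, 9 were lower and 2 higher in KO than in WT, with a median of -0.17, and 9 were lower and 3 higher in Het, with a median of -0.17. Of 39 other postsynaptic density genes, 22 were lower and 7 higher in KO (median -0.35), and 23 were lower and 5 higher in Het (median -0.24). Of 14 delta receptor ligand and adhesion genes, 10 were lower and 1 higher in KO (median -0.46), and 11 were lower and 1 higher in Het (median -0.24).

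The largest called changes in KO were in Cbln4, Camk2a, Arc, Cbln2, Shisa6 and Camk2d. Cbln4, a synaptic organiser that binds neurexins, averaged 1.45 ± 0.41 CPM in KO and 6.22 ± 1.33 CPM in Het libraries, against 8.63 ± 1.14 CPM in WT libraries (SD, n = 3), and was lower in both KO (log2 fold change -2.57, SE 0.21, adjusted p = 3e-08) and Het (-0.48, SE 0.18, adjusted p = 0.038). The Het call of Cbln4 was lost without Het replicate 2 or 3 or WT replicate 1 or 3 (values from -0.44 to -0.37, adjusted p from 0.0999 to 0.15), with upper-quartile factors (-0.44, adjusted p = 0.051) and by limma on log2(FPKM + 1) (-0.31, adjusted p = 0.055). Camk2a, the CaMKII subunit that rises after birth, averaged 62.0 ± 6.57 CPM in KO and 100.2 ± 9.13 CPM in Het libraries, against 217 ± 31.1 CPM in WT libraries (KO -1.81, SE 0.12, adjusted p = 2.2e-06; Het -1.11, SE 0.12, adjusted p = 7.3e-05). Camk2a was also lower in KO than in Het (-0.69, SE 0.12, adjusted p = 0.0045). Shisa6, which encodes an AMPA receptor partner that slows desensitisation, averaged 23.4 ± 0.34 CPM in KO and 51.8 ± 8.5 CPM in Het libraries, against 67.1 ± 15.7 CPM in WT libraries (KO -1.52, SE 0.17, adjusted p = 0.00013). In Het it did not pass (-0.37, SE 0.17, adjusted p = 0.11), although it did without Het replicate 3 (-0.50, adjusted p = 0.038) or WT replicate 3 (-0.49, adjusted p = 0.035), and KO was lower than Het (-1.15, SE 0.17, adjusted p = 0.003). Arc, an activity-regulated gene, had 1.88, 1.94 and 2.56 CPM in KO and 2.13, 1.73 and 2.28 CPM in Het libraries, against 4.92, 9.53 and 4.17 CPM in WT libraries (KO -1.54, SE 0.28, adjusted p = 0.00052; Het -1.60, SE 0.28, adjusted p = 0.00057). The highest value was in WT replicate 2, the library with high Fos. Without it Arc was at -1.09 in KO (adjusted p = 0.00032) and -1.15 in Het (adjusted p = 0.00029).

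Cbln1, the glutamate delta receptor ligand, averaged 28.7 ± 0.62 CPM in KO and 55.0 ± 2.53 CPM in Het libraries, against 64.1 ± 6.15 CPM in WT libraries. It was lower in both KO (log2 fold change -1.16, SE 0.07, adjusted p = 1.8e-09) and Het (-0.22, SE 0.07, adjusted p = 0.019) than in WT, and was lower in KO than in Het (-0.94, SE 0.07, adjusted p = 2e-07). The Het call of Cbln1 was lost without Het replicate 2 (-0.17, adjusted p = 0.1) or WT replicate 2 (-0.14, adjusted p = 0.14) and by limma on log2(FPKM + 1) (-0.16, adjusted p = 0.064). Nptxr, the neuronal pentraxin receptor that gathers AMPA receptors, averaged 199.5 ± 11.7 CPM in KO and 264 ± 13.0 CPM in Het libraries, against 323 ± 26.0 CPM in WT libraries (KO -0.70, SE 0.07, adjusted p = 1.8e-07; Het -0.29, SE 0.07, adjusted p = 0.0017). The kinase gene Camk2d, Frrs1l and Cbln2, taken by the same rule, were also lower in KO and in Het than in WT. Their KO values were -1.44 (SE 0.19, adjusted p = 0.00027) for Camk2d, -0.85 (SE 0.13, adjusted p = 0.00051) for Frrs1l, which acts in AMPA receptor assembly, and -1.53 (SE 0.28, adjusted p = 0.0031) for Cbln2. In the same order, the Het values were -0.99 (SE 0.18, adjusted p = 0.0027), -0.74 (SE 0.13, adjusted p = 0.0015) and -0.99 (SE 0.28, adjusted p = 0.023). The Het call of Cbln2 was lost with only the genotypes compared (-0.99, adjusted p = 0.054). It was also lost without Het replicate 1 or 3 or WT replicate 2 or 3 (values from -0.93 to -0.82, adjusted p from 0.061 to 0.066).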

How the data were processed

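RNA from 9 libraries, 3 per genotype, was counted per gene. The authors deposited raw read counts and, in a second table, FPKM values computed from them. The FPKM values equal the counts divided by 1 length per gene and by the library total, so they are no independent measurement. The build mm10 and the tools DESeq 1.10.1, HTSeq 0.6.1, TopHat2 2.0.9 and Bowtie2 2.0.6 are named, with no roles, per the submitters' processing notes. The sources used here state neither strand use nor the handling of reads that match several genes. Symbols and positions come from GENCODE M21, which uses the same build.

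Counts were fitted with edgeR 4.0.16 (R 4.3.3): filterByExpr (minimum count 10, minimum total count 15) kept 15271 genes with 99.95% of reads. All 9 libraries entered 1 robust quasi-likelihood model with TMM factors and a coefficient for each genotype, leaving 6 residual degrees of freedom. A gene was called at a Benjamini-Hochberg adjusted p under 0.05 over all genes. This test gave every adjusted p-value for which no other tool is named, except those of the ratios. The standard error (SE) is the log2 fold change divided by the square root of F. Log2 ratios of FPKM for 12 pairs used a two-sided exact permutation test over libraries, with Benjamini-Hochberg adjustment over the 12 ratios of each comparison. Their SE comes from the pooled SD.

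Alternatives were RLE and upper-quartile factors, no filter, a filter of 1 CPM in 3 libraries, DESeq2 1.42.0, fits of only the compared genotypes, limma 3.58.1 on log2(FPKM + 1), leaving out each library, a replicate block and, for ratios, CPM or pseudocounts of 1 and 0.1. The procedure was also run on simulated counts, where far fewer genes differed than were called here, and in KO only. That run therefore does not measure false calls under changes as wide as these. Library values are given for genes called with a fold of at least 1.5, genes of a ratio, and the gene of each class with the highest FPKM, and other genes by range. Up to 3 called genes per pathway list with the largest fold in KO versus WT are named. Some genes that this rule takes, and 1 of the pathway lists, are not reported here. The members, lists, ratios and rules were chosen with earlier results of these data known. Python 3.11.15 with matplotlib 3.10.9 drew the figures.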

Additional observations from a re-analysis of the deposited data

How the results depend on the processing

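Of the 65 called values of single genes none changed sign under any alternative, and 20 of the 52 values not called did. After the change of sign these values were at most 0.105 in size, and none was called. With upper-quartile scaling the values were 0.022 for Gria4 (KO versus WT), 0.012 for Dlgap2 (KO versus WT), 0.015 for Gria3 (Het versus WT), 0.025 for Grik3 (Het versus WT), 0.0198 for Dlgap2 (Het versus WT) and -0.0075 for Dlgap2 (KO versus Het). With no low-count filter the values were 0.013 for Gria4 (KO versus WT), 0.0033 for Dlgap2 (KO versus WT) and 0.0041 for Grik3 (Het versus WT). With a filter of 1 CPM in 3 libraries the values were -0.0085 for Dlgap2 (KO versus Het) and -0.00038 for Shank2 (KO versus Het). By DESeq2 the value was -1.6e-05 for Dlgap2 (KO versus Het). By limma on log2(FPKM + 1) the values were 0.032 for Gria4 (KO versus WT), 0.027 for Dlgap2 (KO versus WT), 0.029 for Gria3 (Het versus WT), 0.037 for Grik3 (Het versus WT), 0.032 for Dlgap2 (Het versus WT), 0.00028 for Homer2 (Het versus WT) and -0.0044 for Dlgap2 (KO versus Het). With only the genotypes compared in the fit the values were 0.0016 for Gria4 (KO versus WT) and -0.0069 for Dlgap2 (KO versus Het). With 1 library left out, the log2 fold changes that crossed 0 ranged as follows. In KO versus WT Dlgap2 -0.077 to 0.10, Gria4 -0.045 to 0.043 and Grin2b -0.026 to 0.15. In Het versus WT Dlgap2 -0.081 to 0.10, Gria3 -0.069 to 0.025, Grik1 -0.096 to 0.14, Grik3 -0.041 to 0.028, Grin2a -0.27 to 0.096 and Homer2 -0.074 to 0.0039. In KO versus Het Dlg1 -0.039 to 0.053, Dlg2 -0.036 to 0.11, Dlgap2 -0.059 to 0.0699, Dlgap4 -0.075 to 0.022, Grik5 -0.036 to 0.074, Grin2c -0.33 to 0.097, Grm3 -0.0105 to 0.052, Grm4 -0.21 to 0.081, Homer3 -0.075 to 0.036, Shank2 -0.064 to 0.043 and Shank3 -0.11 to 0.094. Arc, from the pathway lists, ranged from -0.10 to 0.15 in KO versus Het. The log2 ratios that crossed 0 with 1 library left out ranged, in KO versus WT Grin2a/Grin2b -0.049 to 0.26 and Grin3a/Grin1 -0.038 to 0.095, in Het versus WT Grik1/Grik2 -0.044 to 0.19 and Grik3/Grik2 -0.014 to 0.11, in KO versus Het Grin2d/Grin2b -0.23 to 0.16, Dlg4/Dlg3 -0.063 to 0.076 and Dlg2/Dlg3 -0.13 to 0.0102. With 1 library left out, the members lower in KO than in Het numbered 4 to 9, with 4 without KO replicate 2, and those higher in Het than in WT numbered 2 to 4, with 2 without Het replicate 3. The other counts of members lower or higher stayed within 1.5 times. Deviations from the genotype means had correlations from -0.106 to 0.0844 between same-numbered libraries, and from -0.137 to 0.0982 between other pairs. With 3 libraries a group these values cannot tell whether a number marks a shared litter or batch, and the labels do not say. With the replicate number as a block, 24 members were lower and 3 higher in KO than in WT, 19 and 4 in Het than in WT, and 7 and 3 in KO than in Het. The calls lost under the block were Gria2 (adjusted p = 0.07) and Dlgap1 (0.067) in KO versus WT, Grin3a in Het versus WT (0.06), and Grin3a (0.085) and Camk2b (0.068) in KO versus Het. The median log2 fold change over all genes was 0.03 in KO and 0.05 in Het versus WT with upper-quartile scaling, against 0.01 in each with TMM factors. With 3 libraries a group and no independent count of cells, no difference can be assigned to a cell type, and the exact test of a ratio cannot reach an adjusted p under 0.05. Levels compared between genes depend on the gene length used. The cause of the changes between alternatives was not tested.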

Other observations

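The deposited FPKM values imply 1 length per gene. For the 39 genes this length ran from 8.95% of the GENCODE M21 exonic length for Dlg4 to 116% for Grm3, with a median of 40.6%. Dlg4 averaged 372 FPKM in KO, 352 FPKM in Het and 471 FPKM in WT libraries, and 33.3, 31.5 and 42.2 in the same order of genotypes when the exonic length was used. Differences between genotypes for 1 gene do not depend on this length, while the order of levels between genes does.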
